A study of Mus musculus with 41 samples.

Results

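The data compare the epithelium of the young mouse thymus with the rest of its non-haematopoietic stroma. The epithelial fraction (TEC, sorted as CD45-EpCAM+) and the non-epithelial fraction (nonTEC, sorted as CD45-EpCAM-) came from unoperated male C57Bl/6 mice aged 5 to 6 weeks, with 3 arrays each. These 6 arrays were chosen by their labels (TEC Normal Young and nonTEC Normal Young) from the 41 Illumina arrays of a study of thymic ageing and of regrowth after castration. A further 29 arrays from male C57Bl/6 mice aged 9 to 12 months served to ask whether the young difference was also present later. They cover TEC and nonTEC of unoperated mice, of castrated mice at day 4 and day 7, and of sham-castrated mice at the same days. Thymi had been digested to single cells before sorting. The labels do not say whether the arrays of a group came from different animals, so p-values measure the spread between arrays of a group. That spread was pooled over the groups of all 41 arrays and is not that of the 6 young arrays alone. The older arrays also entered the choice of genes and probes to test.

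Thymic epithelium forms the cortex, where immature T cells are produced and selected for recognition of self MHC, and the medulla, where self-reactive cells are removed. Medullary epithelial cells display proteins of other organs under the control of Aire and Fezf2. The non-epithelial stroma holds fibroblasts of the capsule and septa, endothelium and the mural cells of vessels. It supplies growth factors such as Fgf7, Fgf10 and Bmp4 to the epithelium and is the route by which T cell progenitors enter and mature cells leave.

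Values are deposited intensities on the log2 scale, in which a difference of 1 is a 2-fold difference. A gene was called where limma's test with Benjamini-Hochberg adjustment over 8487 genes gave an adjusted p under 0.05, and a difference was called large where it was also at least 2 (4-fold). Both fractions had probes for 10543 genes, of which 8487 were bright enough to test and 7851 were bright enough in at least 1 young group. The fractions had been normalized separately, and over the shared probes the array medians were 6.97 to 6.98 in TEC and 7.35 in nonTEC. The median difference over all genes tested was -0.30 as deposited, +0.08 after quantile normalization of all arrays together and +0.08 after centring each array. Small differences therefore have no settled direction, and large ones and ranks within arrays are described first. Each mean below is given ± SD with n = 3 arrays and each difference ± SE.

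Both labels matched their markers. Krt8, a keratin of simple epithelium, had intensities of 13.36, 13.33 and 13.34 on the TEC arrays and 9.80, 9.63 and 10.74 on the nonTEC arrays. Pdgfra, the platelet-derived growth factor receptor that marks fibroblasts, had 5.38, 5.43 and 6.11 in TEC and 12.37, 12.37 and 12.62 in nonTEC. Neither gene overlapped between the fractions. Krt8 lay 3.29 ± 0.27 higher in TEC (limma adjusted p = 1.6e-12) and Pdgfra 6.81 ± 0.54 lower, a difference of -6.81 (limma adjusted p = 1.03e-12). Krt8 stood at the 79.6th percentile of nonTEC and at the 99.3rd of TEC. Epcam, on which the cells were sorted, was not analysed here.

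One nonTEC array stood apart. Mpo, the myeloperoxidase of granulocyte precursors, had 13.82 and 13.38 on nonTEC arrays 1 and 2 and 8.23 on array 3. Prtn3, a protease of the same cells, had 12.02, 11.59 and 6.10, and Ctsg, cathepsin G, had 11.57, 10.90 and 5.07. Array 3 was low in all 3 genes. Array 3 was the highest for Mucl2 (5.14, 4.83 and 9.45) and for the kallikrein Klk1 (5.30, 5.36 and 8.38), both of which are secreted gland products. It was also the highest for Krt8 and for Cd3e, a subunit of the T cell receptor complex (10.33, 10.60 and 11.47). On array 3, 29 genes lay at least 2-fold above both other nonTEC arrays and 38 at least 2-fold below, against 4 and 29 for array 1 and 13 and 9 for array 2. The difference of Mpo between TEC and nonTEC was -1.69 with all arrays, -3.48 without nonTEC array 3 and 1.89 without arrays 1 and 2. Results that rest on these arrays are given with and without them.

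**Figure D1:**
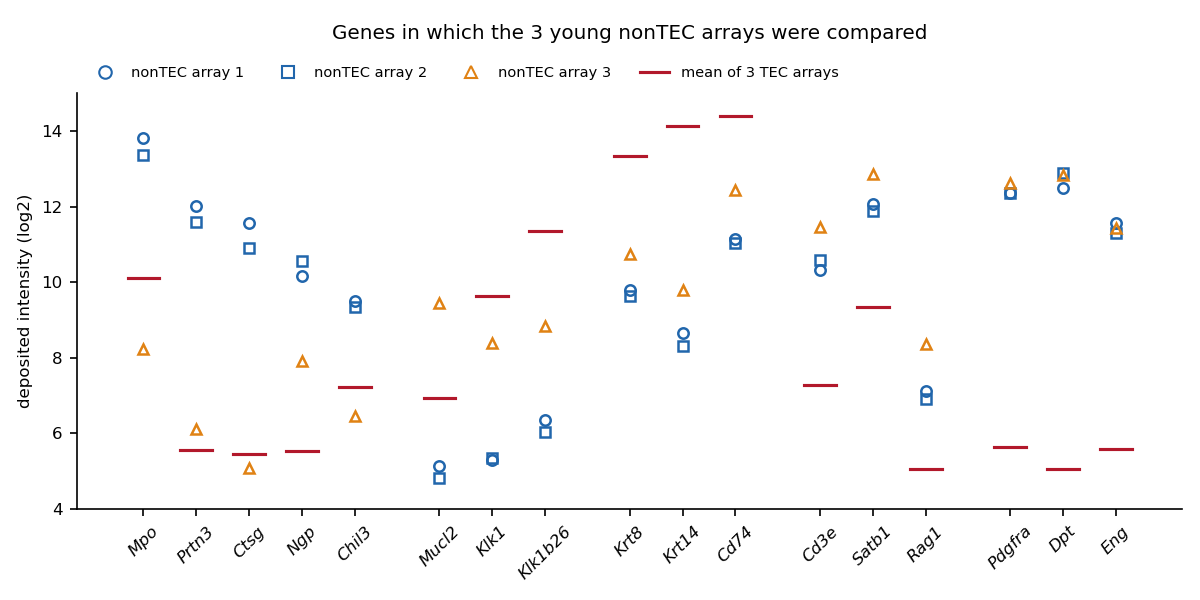
Deposited log2 intensity (vertical axis) of 17 genes on the 3 young nonTEC arrays (symbols) with the mean of the 3 young TEC arrays (red line). Array 3 is below arrays 1 and 2 for the granulocyte genes at the left and above them for the gland, epithelial and T cell genes, while Pdgfra, Dpt and Eng lie close together on all 3.

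Epithelium and stroma differed in most genes measured. In all, 5640 of 8487 genes were called (66.5%), 2063 of them higher in TEC (24.3% of those tested) and 3577 lower (42.1%). These shares are the background for the counts of every gene list below. The balance of directions depended on the scaling: TEC was higher in 36.6% of the called genes as deposited, in 55.3% after quantile normalization, in 55.1% after centring and in 51.2% on percentile ranks. Under these scalings the median of 38 of 39 gene lists kept its sign (adipocyte genes did not), and in 35 lists no count of called genes moved by more than 2. The other lists were those of immediate early, cell cycle, leukocyte and reference genes, whose counts are given with them. Large differences were found in 616 genes higher in TEC (7.26%) and 908 lower (10.7%). Of these 1524 genes, 1521 kept their sign and their call after quantile normalization, 1521 after centring and 1512 on percentile ranks. The 3 arrays of TEC and the 3 of nonTEC did not overlap in 6385 genes (75.2%), with TEC higher in 27.1% of the genes tested and lower in 48.1%. An exact permutation test of 1 gene on 3 against 3 arrays cannot give a p below 0.1.

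**Figure D2:**
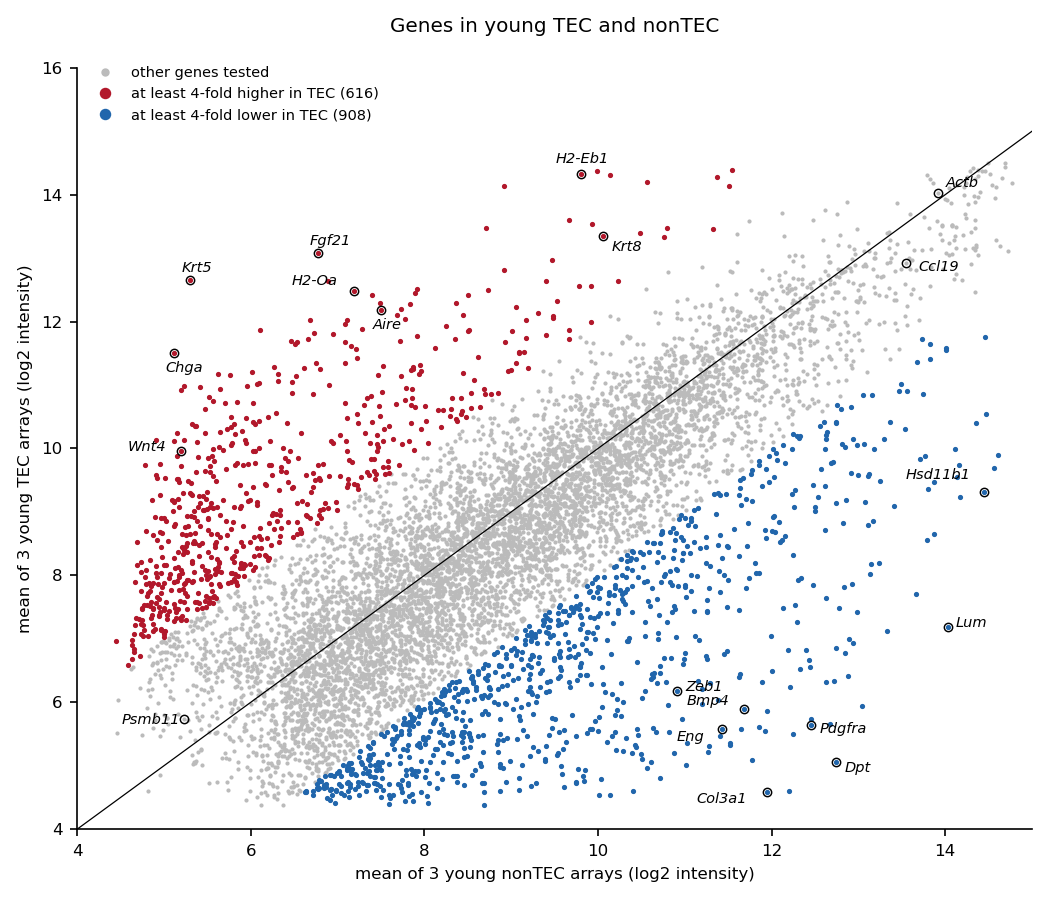
Mean log2 intensity of each of the 8487 genes tested in young nonTEC (horizontal) and young TEC (vertical), 3 arrays each, with the line of equal intensity. The 616 genes at least 4-fold higher in TEC are red and the 908 at least 4-fold lower are blue, with selected genes circled and named.

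Genes at the 2 ends of the ranking included keratins on one side and collagens on the other. Krt5, the keratin of basal and medullary epithelium, had the highest difference, with 12.60, 12.56 and 12.80 in TEC and 5.29, 4.70 and 5.90 in nonTEC. This was a difference of 7.36 ± 0.44 (limma adjusted p = 1.41e-15), from the 11.6th percentile of nonTEC to the 98.3rd of TEC. It was followed by Chga, a granule protein of neuroendocrine cells (6.39 ± 0.46), and by Fgf21, a circulating metabolic hormone (6.31 ± 0.21). Fgf21 was tightly placed on the TEC arrays, at 13.04, 13.07 and 13.13, and stood at 6.71, 6.39 and 7.22 in nonTEC. The next genes were Cdhr1, a photoreceptor cadherin (5.77), Cd70, the ligand of the T cell receptor Cd27 (5.76), Csn2, the milk protein beta-casein (5.75), Insm1, a neuroendocrine transcription factor (5.73), and Syt1, a synaptic vesicle protein (5.56). Hal, the histidine-degrading enzyme (5.55), Pvalb, the calcium buffer of muscle and neurons (5.41), Urah of uric acid breakdown (5.34) and the MHC class II chaperone H2-Oa (5.29) completed the first 12.

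Dpt, dermatopontin, a matrix protein of connective tissue, had the lowest difference. It had 5.11, 4.95 and 5.12 in TEC and 12.49, 12.90 and 12.85 in nonTEC, a difference of -7.69 ± 0.41 (limma adjusted p = 8.49e-17). Abca8a, a lipid transporter, followed at -7.61 ± 0.36, and Col3a1, the fibrillar collagen III chain, at -7.37 ± 0.30. Col3a1 lay at the 3.84th percentile of TEC and the 94.8th of nonTEC. Scara5, a ferritin receptor (-7.10), Lhfp (-7.02), the proteoglycan Lum (-6.85), Pdgfra (-6.81), Plac9a (-6.74), the collagen I chain Col1a1 (-6.72), the TGF beta binding protein Ltbp1 (-6.68), Mxra8 (-6.47) and the fibroblast surface protein Cd248 (-6.39) made up the first 12 in this direction. None of these 24 genes overlapped between the fractions, which was part of the rule that chose them.

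Ranks gave a view that does not need a common scale. Of the genes tested, 64 were at or above the 90th percentile in TEC and below the 50th in nonTEC, and 61 were placed the other way round. A further 680 genes were at or above the 90th percentile in both fractions. Of the genes with a large difference, 429 of the 616 higher in TEC were below the filter level of 6.73 in nonTEC, and 529 of the 908 lower in TEC were below it in TEC. For those genes the size of the difference rests on a dim value, and the files give no background level.

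**Figure D3:**
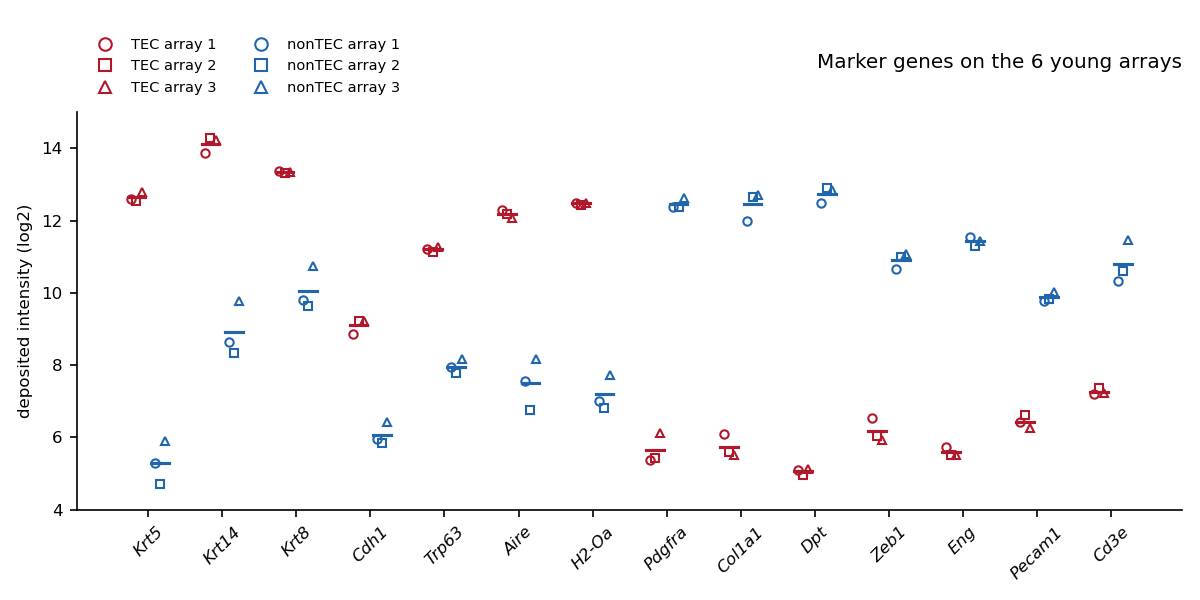
Deposited log2 intensity of 14 marker genes on each of the 6 young arrays, with TEC in red, nonTEC in blue, a symbol for each array number and a line at each mean. The 7 epithelial genes at the left are higher on all 3 TEC arrays and the 7 stromal and T cell genes at the right on all 3 nonTEC arrays.

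Genes of general epithelial identity were higher in TEC without exception among those tested, as deposited: 21 of 21 were called higher, with a median difference of 3.51. On percentile ranks 20 were called, and Krt17 did not pass (limma adjusted p = 0.0913). Keratins led the group. Krt7 had 11.67, 11.67 and 11.75 in TEC against 6.59, 6.07 and 6.72, a difference of 5.23 ± 0.24, and Krt14, the partner of Krt5, had 13.89, 14.28 and 14.23 against 8.65, 8.32 and 9.79 (5.21 ± 0.36). Krt18, the partner of Krt8, differed by 3.76 ± 0.26 and Krt19 by 3.67 ± 0.30. In these keratins every TEC array lay above every nonTEC array. The adhesion molecule E-cadherin, Cdh1, differed by 3.03 ± 0.25, the tight junction protein Cldn4 by 4.27 ± 0.31, the recycling GTPase Rab25 by 5.07 ± 0.21, the desmosomal plakophilin Pkp1 by 4.62 and the protease inhibitor Spint1 by 4.55 ± 0.27. The smallest difference of the group was that of Itga6, an integrin of hemidesmosomes that is not restricted to epithelium (0.70 ± 0.28, limma adjusted p = 0.0285). Itga6 did not pass without TEC array 1, TEC array 3 or nonTEC array 2 (limma adjusted p = 0.0765, 0.143 and 0.135). A further 7 members had probes only in TEC, among them Sfn (mean 9.56 ± 0.14), Ap1m2 (9.48 ± 0.32) and the splicing regulator Esrp2 (8.43 ± 0.24). On the nonTEC side, the mean over the 21 genes was 6.73, 6.50 and 7.07 on arrays 1 to 3, against 10.31 to 10.54 on the TEC arrays.

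The factors that repress this programme had the opposite pattern. Zeb1, a zinc finger repressor of E-cadherin, had 6.55, 6.02 and 5.94 in TEC and 10.67, 10.99 and 11.08 in nonTEC, a difference of -4.74 ± 0.32 (limma adjusted p = 1.87e-14). Zeb2 differed by -4.45 ± 0.28, Twist1 by -4.36 ± 0.24, Snai1 by -3.00 ± 0.23 and Tcf4 by -2.38. The 3 TEC arrays were below the 3 nonTEC arrays for each of these 5 genes. Snai2 (-0.63 ± 0.30, limma adjusted p = 0.064) and Snai3 (0.45) did not pass, so 5 of 7 repressors were lower in TEC and 0 were higher, or 1 (Snai3) after quantile normalization, centring or ranking. Of 5 activators of epithelial genes, 4 were higher in TEC (Elf3, Klf5, the splicing factor Esrp1 and Grhl1) and Klf4 was lower, at -3.67 ± 0.34.

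Zeb and Snail proteins bind E-box letters of the form CACCTG, so promoters of epithelial genes are shown with these letters in capitals (also as CAGGTG, the same letters read on the other strand). Each is an 80 base stretch upstream of the start site, in the direction of the gene, from the RefSeq promoter table of GRCm38.p6. The genes were chosen because they are tested members of the epithelial list that hold the motif.
Krt8, chr15:102004410-102004489, minus strand: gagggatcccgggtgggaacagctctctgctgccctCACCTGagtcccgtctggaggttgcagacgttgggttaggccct
Krt18, chr15:102027966-102028045, plus strand: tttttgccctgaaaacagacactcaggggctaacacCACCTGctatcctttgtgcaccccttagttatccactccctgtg
Krt7, chr15:101412323-101412402, plus strand: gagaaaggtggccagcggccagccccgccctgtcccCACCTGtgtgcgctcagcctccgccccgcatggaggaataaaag
Krt5, chr15:101712990-101713069, minus strand: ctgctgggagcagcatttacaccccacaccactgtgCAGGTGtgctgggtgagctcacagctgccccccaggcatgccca
Cldn4, chr5:134946935-134947014, minus strand: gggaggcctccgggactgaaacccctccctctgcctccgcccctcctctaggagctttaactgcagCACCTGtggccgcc
Spint2, chr7:29282008-29282087, minus strand: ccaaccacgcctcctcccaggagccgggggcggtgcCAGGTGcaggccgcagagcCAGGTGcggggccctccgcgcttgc
Rab25, chr3:88548300-88548379, minus strand: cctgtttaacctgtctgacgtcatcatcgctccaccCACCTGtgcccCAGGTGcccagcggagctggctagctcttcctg

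Over the 250 bases before the start site, on either strand, 7 of 10 promoters found for the epithelial list held CACCTG, against 2 of 18 for the fibroblast list. Among genes at least 4-fold higher in TEC, 27.9% of 598 promoters held it, among those at least 4-fold lower 15.6% of 892, among all genes tested 15.8% of 8888 and 17.2% of all 32851 listed. The median GC content of these 4 sets was 56.0%, 59.4%, 59.6% and 52.4%. A promoter was listed for 456 of the 616 genes, 675 of the 908 and 6894 of the 8487. The shares are descriptions of letters in a window and show no binding. The Grainyhead letters AACCGGTT were in 0 promoters of either large set and in 0.225% of those tested, and the AP-1 letters TGACTCA were in 6.86%, 4.15%, 3.3% and 4.46% of the 4 sets in the same order. The letters GACGC, taken as a Foxn1 core, were in 18.7%, 27.6%, 36.6% and 22.6%, so they were least frequent in the set higher in TEC.

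Transcription factors of the thymic epithelial lineage were mostly higher in TEC, with 9 of 10 called, 0 lower and a median difference of 2.67. Isl1, a homeobox factor of the pharyngeal endoderm, had 11.07, 10.84 and 10.74 in TEC against 6.58, 5.80 and 7.06 (4.40 ± 0.36). Trp63, which maintains epithelial progenitors, had 11.22, 11.14 and 11.28 against 7.94, 7.77 and 8.17 (3.25 ± 0.19). The arrays of the 2 fractions were far apart for both. Elf3 differed by 4.20 ± 0.19, Foxa1 by 3.19 ± 0.29, Klf5 by 2.77 ± 0.24 and Sox9 by 1.82 ± 0.13, while Pax1, a pouch endoderm factor, differed by 0.72 ± 0.21 and was dim in both fractions. Foxn1, the master regulator of thymic epithelium, had probes only in TEC and was dim there, at 5.25, 5.07 and 5.31 (23.5th percentile). Pax9 (5.02 ± 0.18) and Tbx1 (5.52 ± 0.21) were also present only in TEC. Levels of different probes cannot be set against each other, so these low values say nothing about the amount of the factor relative to others.

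Medullary genes were among the largest differences, with 16 of 18 called higher, 1 lower and a median difference of 3.53. Aire, the regulator of tissue-restricted antigens, had 12.31, 12.18 and 12.06 in TEC and 7.57, 6.77 and 8.17 in nonTEC, a difference of 4.68 ± 0.30 (limma adjusted p = 5.7e-15). Fezf2, which controls a separate set of such antigens, had 13.63, 13.38 and 13.40 against 8.65, 8.20 and 9.30 (4.76 ± 0.23). All TEC arrays were above all nonTEC arrays for both genes, and nonTEC array 3 was the highest of its group. The receptors that drive medullary maturation, Tnfrsf11a (RANK, 4.17 ± 0.33) and Cd40 (3.66 ± 0.19), and the costimulatory ligand Cd80 (3.54 ± 0.43) were higher in TEC. The NF-kappaB subunit Relb differed by 1.65 ± 0.23 and the Ets factor Spib by 2.28 ± 0.23. The lymphotoxin receptor Ltbr had overlapping arrays and did not pass (7.76 ± 0.27 against 7.92 ± 0.19). Chemokine Ccl21a, which has near-identical copies that a probe may not separate, differed by 3.63 ± 0.40, while Ccl19, another ligand of the same receptor, was bright in both fractions and slightly lower in TEC (12.93 ± 0.51 against 13.55 ± 0.05, limma adjusted p = 0.0439). This last call was lost after quantile normalization, centring or ranking and without any 1 of 5 of the 6 arrays, among them nonTEC array 3 (limma adjusted p = 0.0825). Krt5, Krt14, Cldn3 and Cldn4 are counted here and among the general epithelial genes.

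Tissue-restricted antigens of medullary epithelium were measured mostly in TEC alone. Of 22 such genes, 5 were tested, and 3 of them were higher. Which of them depend on Aire and which on Fezf2 was not tested. Csn2 had 12.84, 12.42 and 12.63 in TEC against 6.44, 6.59 and 7.63. The sperm fatty acid binding protein Fabp9 had 10.71, 10.97 and 11.40 against 5.85, 5.90 and 6.54, and Dcpp2 of salivary gland had 9.21, 9.11 and 9.26 against 4.79, 4.78 and 5.01, although its family is closely related in sequence. The 3 genes were 4.33 to 5.75 higher in TEC with no overlap. A further 11 were present only in TEC, including the intestinal apolipoprotein Apoa4 (9.99, 10.38 and 10.26), the trefoil peptide Tff3 (8.07, 8.85 and 8.88), the insulin gene Ins2 (7.42, 7.69 and 7.93) and the milk protein Wap (7.92, 8.51 and 8.15). Mucl2 overlapped between the fractions and did not pass (0.46 ± 0.77); without nonTEC array 3 it was higher in TEC (1.95, limma adjusted p = 0.00901), and without arrays 1 and 2 it was lower (-2.52, limma adjusted p = 0.0107).

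Genes of cortical function gave a mixed picture, with 5 of 11 higher, 1 lower and a median difference of 0.50. Il7, the cytokine needed by early thymocytes, had 11.24, 11.02 and 11.15 in TEC against 7.57, 7.52 and 8.09 (3.41 ± 0.20). Prxl2b differed by 3.38 ± 0.19 and Tbata, a thymus protein of stromal cells, by 2.57 ± 0.35, each without overlap. Psmb11, the cortical proteasome subunit, was dim everywhere, with 5.75, 5.53 and 5.90 against 5.20, 5.19 and 5.30, and did not pass (0.50 ± 0.45, limma adjusted p = 0.334). Prss16, the cortical serine protease, did not pass either (-0.81 ± 0.50, limma adjusted p = 0.152), and Ccl25, which attracts progenitors and thymocytes, was bright in both fractions (11.78 ± 0.16 against 11.46 ± 0.52) with overlapping arrays. With only the 6 young arrays in the fit, Psmb11 (adjusted p = 0.0321, limma) and Prss16 (adjusted p = 0.0274, limma) passed, and with the mean of its probes Ccl25 was higher in TEC (1.31). The progenitor chemokine Cxcl12 was lower in TEC, at 9.73, 9.10 and 8.74 against 11.49, 10.67 and 11.39 (-1.99 ± 0.38, limma adjusted p = 3.22e-05). Dll4, the Notch ligand of cortical epithelium, was too dim in both fractions to test (5.39 ± 0.51 and 5.00 ± 0.37). The stem cell factor gene Kitl was present only in nonTEC and near the floor (4.69 ± 0.18). In a sorted pool, fewer cells of a type and less RNA per cell cannot be told apart.

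Genes of specialised epithelial subtypes were mostly higher in TEC. Of 6 tuft cell genes, chemosensory epithelium found in gut and thymic medulla, 5 were higher, including the actin regulator Avil (4.62 ± 0.31), Sh2d6 (3.95 ± 0.26) and the taste G protein Gnat3, which had 7.96, 8.57 and 9.00 in TEC against 5.42, 5.54 and 5.04 (3.18 ± 0.43). Ltc4s, leukotriene C4 synthase, was lower in TEC, at 8.52, 9.05 and 9.46 against 12.54, 12.42 and 12.52 (-3.48 ± 0.31). The channel Trpm5 (8.86 ± 0.20), the cytokine Il25 (6.76 ± 0.18) and the acetylcholine enzyme Chat (7.84 ± 0.27) had probes only in TEC. Of 12 genes of cornified epithelium, as found in Hassall-like bodies of the medulla, 10 were higher and 0 lower, with Lypd3 at 3.65 ± 0.28, the envelope precursor Sprr1b at 3.32 ± 0.24, Lor at 2.75 and Ivl at 2.50. Neuroendocrine genes are described only, since they were picked after Chga was seen among the largest differences. Chga was low on all nonTEC arrays (5.23, 4.99 and 5.12) against 11.38, 11.80 and 11.34 in TEC, whereas Cpe, a peptide processing enzyme also made by fibroblasts, was lower in TEC (7.67, 7.57 and 7.22 against 12.61, 12.91 and 12.82).

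Genes of antigen presentation by MHC class II were higher in TEC. The 10 genes tested were all higher in TEC, with a median of 4.43 and a range from 2.43 to 5.29. H2-Oa had 12.49, 12.44 and 12.50 against 7.02, 6.82 and 7.73 and H2-Eb1, a beta chain, had 14.32, 14.31 and 14.36 against 9.56, 9.48 and 10.37 (4.53 ± 0.20, limma adjusted p = 5.21e-19). Ciita, the coactivator that switches these genes on, had 10.70, 10.29 and 10.28 against 6.14, 5.61 and 6.33 (4.40 ± 0.26). The TEC arrays varied by less than the distance to nonTEC in each of the 3 genes. The invariant chain Cd74 (2.85 ± 0.28) and the chains H2-Ab1 (2.91 ± 0.25) and H2-Aa (2.43 ± 0.77) had the smallest differences with the probes used, and Cd74 was brightest in nonTEC on array 3 (12.44). Over 3 probes each, the difference ranged from 2.85 to 4.73 for Cd74 and from 2.91 to 4.65 for H2-Ab1. Some genes of other class II cells were also higher in TEC: the complement chain C1qb by 1.96 ± 0.26, Cd14 by 1.09 ± 0.23 and Cd83, of dendritic cells and cortical epithelium, by 1.77 ± 0.39. Of 9 myeloid genes 4 were higher in TEC and 2 lower, with means over the list of 9.10 to 9.22 in TEC and 8.20 to 9.19 in nonTEC, and the macrophage markers Csf1r (5.38 in TEC and 5.23 in nonTEC) and Adgre1 (4.84 and 5.86) were too dim to test. Their part in the class II result was not tested. With nonTEC array 3 alone on the stromal side, 9 of 10 were called.

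Class II promoters are known for an X box and a Y box, the latter an inverted CCAAT. Promoters with CCAAT (or ATTGG, its reverse) are shown with those letters in capitals because 7 of 8 class II promoters held them within 250 bases, against 35.1% of promoters of all genes tested and 33.8% of the whole table. They come from the same RefSeq table of GRCm38.p6, 80 bases each in the direction of the gene.
H2-Aa, chr17:34287828-34287907, minus strand: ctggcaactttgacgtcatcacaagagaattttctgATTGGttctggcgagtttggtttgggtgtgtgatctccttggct
H2-Eb1, chr17:34305772-34305851, plus strand: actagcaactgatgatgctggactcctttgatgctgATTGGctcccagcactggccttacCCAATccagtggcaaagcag
H2-DMb1, chr17:34153094-34153173, plus strand: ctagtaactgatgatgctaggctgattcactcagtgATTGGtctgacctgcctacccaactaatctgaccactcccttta
H2-Oa, chr17:34092299-34092378, plus strand: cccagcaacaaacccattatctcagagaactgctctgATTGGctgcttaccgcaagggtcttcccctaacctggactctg
H2-Ob, chr17:34238812-34238891, plus strand: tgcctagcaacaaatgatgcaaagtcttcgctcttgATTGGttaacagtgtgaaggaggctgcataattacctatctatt
The capital letters began 43 to 61 bases before the start site in these 5 genes, and H2-Eb1 held a second match 35 bases before it. Of the promoters of large differences, CCAAT was in 33.6% of those higher in TEC and 31.8% of those lower.

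**Figure D4:**
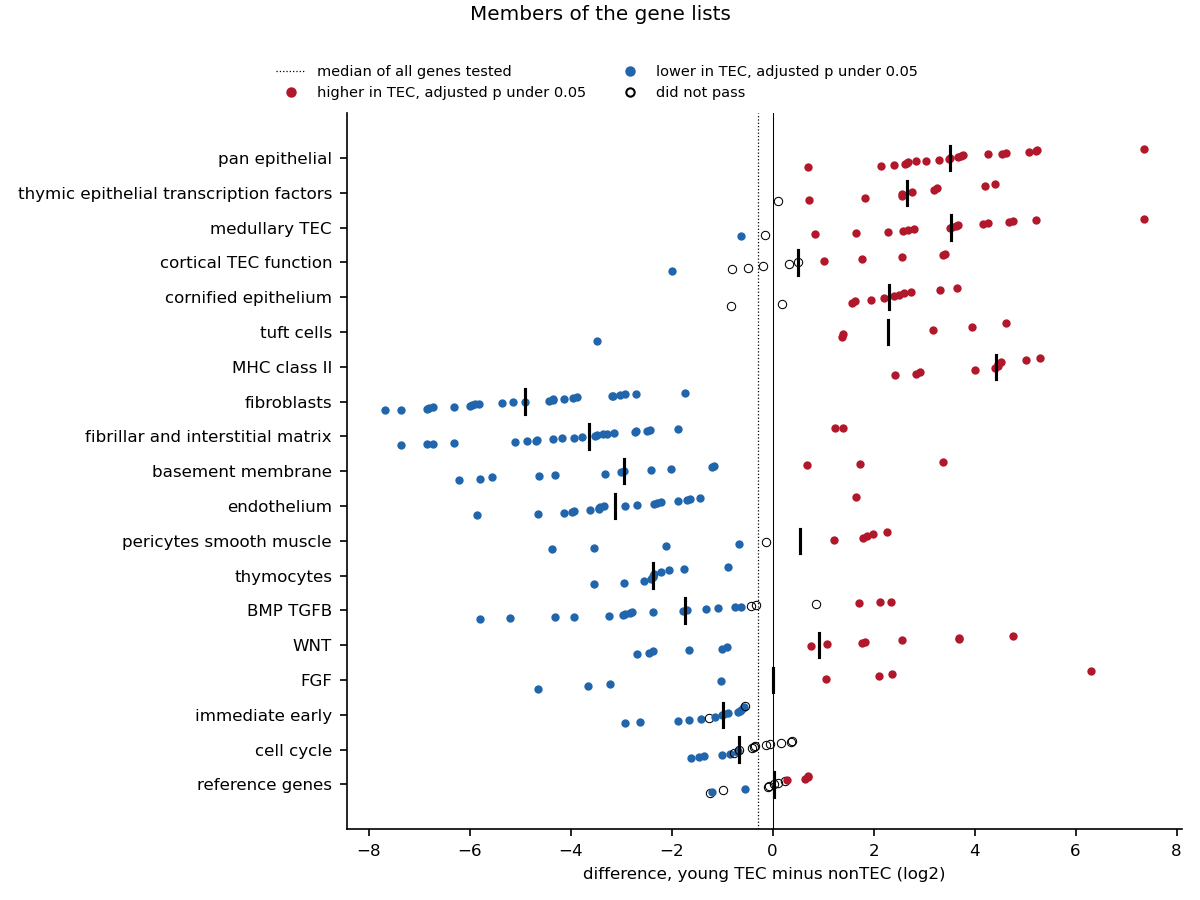
Difference between young TEC and nonTEC (log2, horizontal) for each tested member of 19 gene lists (points), with the median of each list (black bar). Red points were called higher in TEC, blue points lower, and open points did not pass; the dotted line is the median of all 8487 genes at -0.30.

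Fibroblast genes made up the stromal side. All 25 tested were lower in TEC, with a median of -4.91, and 24 differed by at least 4-fold. Col1a1 had 6.10, 5.58 and 5.52 in TEC and 11.98, 12.67 and 12.73 in nonTEC (-6.72 ± 0.35). Pi16, a marker of adventitial fibroblasts, differed by -5.95 ± 0.60, Dpp4, of capsular fibroblasts, by -4.14 ± 0.41 and the stem and endothelial surface protein Cd34 by -4.91 ± 0.27. In each of these the groups were fully apart. Podoplanin, Pdpn, which is made by some epithelial cells too, had the smallest difference, at 11.51, 11.65 and 11.55 against 13.25, 13.32 and 13.34 (-1.73 ± 0.14). The proteoglycan Dcn differed by -2.70 ± 0.31 with the brightest of its 3 probes, which ranged from -5.18 to -2.70. Gsn, gelsolin, varied between nonTEC arrays, with 11.34, 14.11 and 13.36. Col1a2 (11.41 ± 0.09), Tcf21 (9.22 ± 0.28), Twist2 (7.58 ± 0.32) and Postn (6.59 ± 0.37) had probes only in nonTEC.

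Matrix genes followed the fibroblasts with a few exceptions. Of 24 genes of fibrillar and interstitial matrix, 22 were lower in TEC (median -3.65) and 2 were higher. The exceptions were tenascin C, Tnc, with 12.12, 11.39 and 11.49 in TEC against 10.25, 10.15 and 10.43 (1.39 ± 0.24), and the proteoglycan Fmod (1.23). With nonTEC array 3 alone on the stromal side 1 gene was higher. Of 15 basement membrane genes, 12 were lower and 3 higher. The epithelial laminin chains were the higher ones: Lamb3, a chain of the hemidesmosomal laminin, had 11.51, 11.15 and 11.30 against 7.94, 7.81 and 8.07 (3.38 ± 0.21), Lama5 differed by 1.73 ± 0.32, and the proteoglycan Agrn by 0.68. Lama2, the laminin chain of muscle and mesenchyme, had 5.17, 4.58 and 5.43 against 10.49, 10.72 and 10.63 (-5.55 ± 0.36). Nidogen Nid1 (-5.80 ± 0.38), collagen Col15a1 (-6.21 ± 0.40) and perlecan Hspg2 (-4.32 ± 0.27) were likewise lower in TEC, so laminin chains were divided between the fractions with no overlap of arrays in those named.

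Integrins, the receptors for matrix, had members on both sides. Of 10 integrin genes, 4 were higher in TEC and 5 lower, where 24.3% and 42.1% of all genes were. Itga3, which pairs with beta 1 to bind that laminin, differed by 3.50 ± 0.24, Itgb4 of hemidesmosomes by 2.84 ± 0.27 and Itgb6, which activates TGF beta, by 2.48 ± 0.30. Itga1, a collagen receptor chain, differed by -3.37 ± 0.36 and Itgb5, a vitronectin receptor chain, by -4.24 ± 0.24. Of 13 cadherins and claudins, 7 were higher and 5 lower. The lower ones included Cldn15 (-4.98 ± 0.28) and the endothelial members Cdh5 (-3.33 ± 0.56) and Cldn5 (-1.87 ± 0.70, lost after quantile normalization), and the higher ones P-cadherin, Cdh3 (4.03 ± 0.22), and Cldn3 (3.51 ± 0.29).

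Endothelial genes were lower in TEC in 19 of 20 cases, with a median of -3.13. Eng, the endoglin coreceptor of TGF beta, had 5.74, 5.51 and 5.50 in TEC and 11.55, 11.30 and 11.44 in nonTEC (-5.85 ± 0.35). Pecam1, the junction protein CD31, had 6.42, 6.61 and 6.26 against 9.77, 9.83 and 10.03 (-3.44 ± 0.65). The fractions did not overlap in either gene. Selp, the P-selectin on which T cell progenitors roll, differed by -4.12 ± 0.51, Plvap of fenestrated vessels by -3.61 ± 0.43 and Vwf by -2.22 ± 0.44. Bmx, a kinase of arterial endothelium, was the exception (1.64 ± 0.26 higher in TEC). Eng also marks mesenchymal cells.

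Mural cell genes did not move together. Of 10 genes of pericytes and smooth muscle, 5 were higher in TEC and 4 lower, beside 24.3% and 42.1% of all genes. Acta2, smooth muscle actin, had 13.29, 13.14 and 13.62 in TEC and 12.17, 12.01 and 12.24 in nonTEC (1.21 ± 0.26, limma adjusted p = 0.000141). Over 4 probes its difference ranged from 0.33 to 1.54, and with the mean of its probes it did not pass (0.89, limma adjusted p = 0.0622). Myh11, smooth muscle myosin, had 9.91, 9.15 and 9.33 against 7.89, 7.59 and 7.50 (1.80 ± 0.33), and Tagln, Tpm2 and Rgs5 were also higher in TEC (2.26, 1.86 and 1.99). For Acta2 and Myh11 the lowest TEC array was above the highest nonTEC array. Desmin, Des, was lower, with 8.29, 8.93 and 8.65 against 11.96, 12.29 and 12.23 (-3.54 ± 0.25), as were the kinase Mylk (-4.38 ± 0.38) and the pericyte receptor Notch3 (-2.11 ± 0.23). The list therefore does not mark 1 fraction. Without nonTEC array 3 the counts were 5 and 3.

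**Figure D5:**
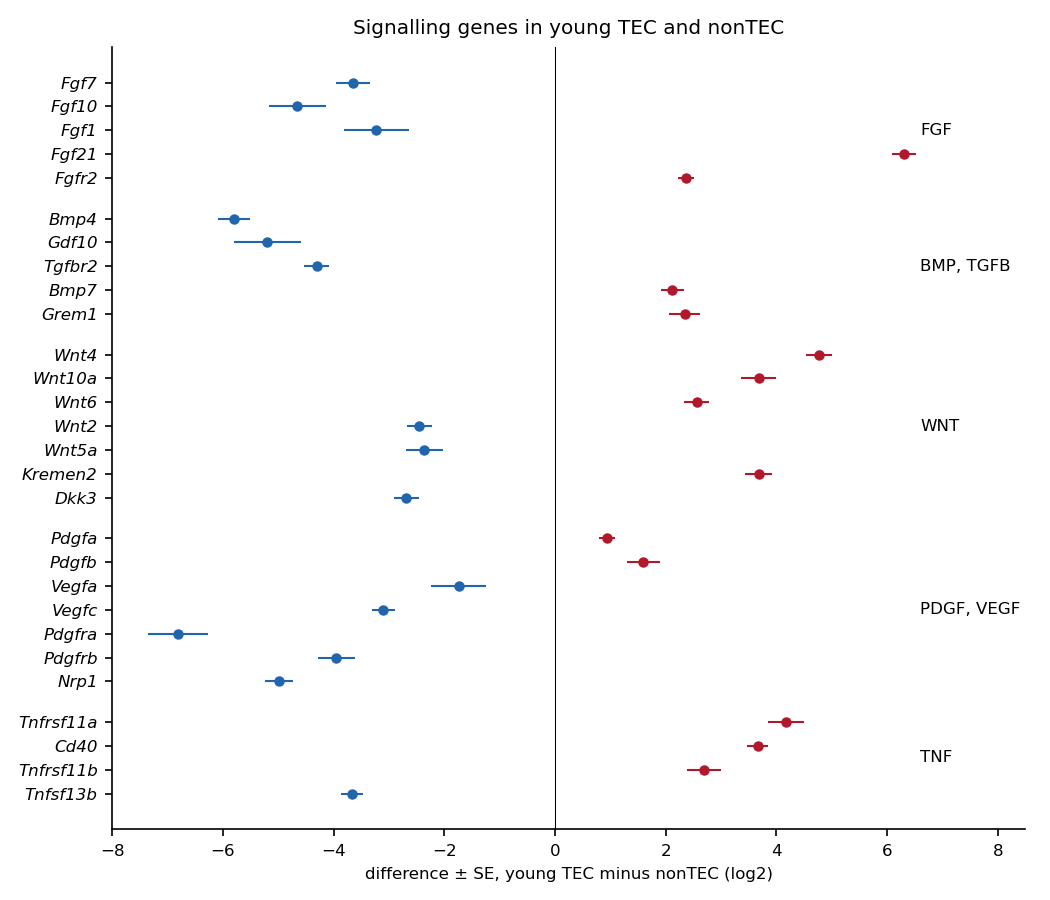
Difference between young TEC and nonTEC (log2, points) with its SE (bars) for 28 ligands, receptors and inhibitors, grouped by pathway. Fgf7, Fgf10, Bmp4 and the PDGF receptors lie on the nonTEC side, and Fgfr2, Wnt4, Tnfrsf11a and Cd40 on the TEC side.

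Fgf7 and Fgf10 were lower in TEC and their receptor gene Fgfr2 was higher. Fgf7, the keratinocyte growth factor, had 5.10, 5.08 and 4.60 in TEC and 8.68, 8.87 and 8.18 in nonTEC (-3.65 ± 0.31). Fgf10 had 5.47, 5.40 and 5.73 against 10.49, 10.13 and 9.94 (-4.66 ± 0.52). Both ligands were clearly higher on every nonTEC array. Fgfr2, whose epithelial form binds both ligands, had 10.95, 10.53 and 10.90 against 8.44, 8.21 and 8.63 (2.37 ± 0.15, limma adjusted p = 3.29e-15). The probe was not matched to an isoform. Of 8 FGF genes 4 were higher in TEC and 4 lower, beside 24.3% and 42.1% of all genes. Fgfr1 was present only in nonTEC (7.08 ± 0.20).

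The BMP and TGF beta families leaned to the stroma, with 16 of 22 genes lower in TEC, 3 higher and a median of -1.74. Among all genes 42.1% were lower and 24.3% higher. Bmp4, a ligand that supports Foxn1 expression, had 6.05, 5.91 and 5.71 against 11.64, 11.68 and 11.75 (-5.80 ± 0.29). Bmp7 had 9.73, 9.65 and 9.73 against 7.54, 7.79 and 7.41 (2.12 ± 0.20), so these ligands were placed in opposite fractions. Gdf10 (-5.20 ± 0.60), the activin chain Inhba (-3.94 ± 0.30) and the receptor Tgfbr2 (-4.31 ± 0.22) were lower in TEC, and the BMP antagonist Grem1 was higher (2.35 ± 0.28).

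The WNT genes were split by ligand, with 8 of 14 higher in TEC and 6 lower, beside 24.3% and 42.1% of all genes. Wnt4, which acts on thymic epithelium, had 9.96, 9.92 and 10.00 against 5.40, 4.97 and 5.23 (4.76 ± 0.23). Wnt10a had 8.68, 9.39 and 9.15 against 5.34, 5.21 and 5.62 (3.68 ± 0.31), and the WNT inhibitor receptor Kremen2 differed by 3.68 ± 0.24. Wnt2 (-2.45 ± 0.23), Wnt5a (-2.37 ± 0.33) and the secreted modulator Dkk3 (-2.68 ± 0.22) were lower in TEC. No array of one fraction crossed into the other for these genes.

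PDGF ligands and receptors were opposed. Pdgfa (0.94 ± 0.15) and Pdgfb (1.60 ± 0.30) were higher in TEC, with means of 11.12 ± 0.12 against 10.19 ± 0.13 for Pdgfa, while Pdgfra and Pdgfrb (-3.95 ± 0.34) were lower. The vessel growth factors Vegfa (-1.74 ± 0.49) and Vegfc (-3.10 ± 0.20) and the coreceptor Nrp1 (-4.99 ± 0.25) were lower in TEC, and of the 14 genes of the list 8 were lower and 3 higher. Of 14 genes of the EGF, HGF, IGF and KIT pathways, 3 were higher and 8 lower. The IGF binding protein Igfbp7 was the lowest of them (-4.94 ± 0.65). Kit was the highest (2.13 ± 0.31), with 9.70, 9.15 and 9.21 against 7.91, 7.26 and 6.52. Among all genes 24.3% were higher and 42.1% lower, so the counts of both lists are not read as a lean of the list.

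Of 13 TNF and lymphotoxin genes, 7 were higher and 4 lower. The shares of all genes, 24.3% higher and 42.1% lower, stand beside this and the other counts of this paragraph. The RANK decoy receptor Tnfrsf11b had 10.06, 9.92 and 9.49 in TEC against 7.12, 7.05 and 7.21 (2.70 ± 0.31). The B cell survival factor Tnfsf13b had 7.67, 7.48 and 7.16 against 11.12, 11.11 and 11.09 (-3.68 ± 0.20). Both were fully separated. The RANK ligand gene Tnfsf11 had probes only in nonTEC, near the floor (5.00 ± 0.12). Of 9 NOTCH genes 3 were higher and 5 lower, with the ligand Jag2 at 1.94 ± 0.56 and the ligand Dll1 at -0.99 ± 0.41, which did not pass after quantile normalization (adjusted p = 0.193, limma). Among steroid and retinoid genes, 2 of 8 were higher and 5 lower. Hsd11b1, which regenerates active glucocorticoid, had 9.21, 9.20 and 9.54 against 14.50, 14.39 and 14.47 (-5.13 ± 0.33), and Aldh1a1, which makes retinoic acid, differed by -4.30 ± 0.22, while the retinoic acid binding protein Crabp1 was higher in TEC (3.02 ± 0.25).

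Of 18 chemokines 6 were higher in TEC and 8 lower, shares near those of all genes (24.3% and 42.1%). Beside Ccl21a, Ccl17 was higher (2.69 ± 0.41). The inflammatory chemokines Ccl2 (-3.08 ± 0.29) and Cxcl1 (-2.42 ± 0.26) were lower, as was Cxcl14 (-3.07 ± 0.26). For Ccl2 the arrays read 6.30, 6.19 and 6.25 in TEC and 9.68, 9.46 and 8.85 in nonTEC.

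CD45+ cells had been sorted away, and genes of blood cells were examined in what remained. Of 11 thymocyte genes, 11 were lower in TEC, with a median of -2.37. Cd3e had 7.19, 7.38 and 7.24 in TEC against 10.33, 10.60 and 11.47 (-3.53 ± 0.62), and Rag1, the recombinase of immature lymphocytes, had 5.03, 4.93 and 5.21 against 7.11, 6.92 and 8.36 (-2.41 ± 0.51). nonTEC array 3 was the highest in both, and the low TEC values cannot be told from background with these files. The mean over the 11 genes was 9.02, 9.12 and 9.96 on nonTEC arrays 1 to 3. Without array 3 all 11 remained lower, 3 rather than 9 of them by at least 4-fold, and the median was -1.94. Ptprc, the gene of CD45, was present only in nonTEC and near the floor (4.67, 5.03 and 5.73). The part of blood cells in the other differences was not tested.

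Other leukocyte genes had no common direction. Of 8 genes shared by leukocytes, 3 were higher in TEC (6 after quantile normalization), led by Cd52 (12.63 ± 0.03 against 10.23 ± 0.23), and 2 lower, led by Was (-2.87 ± 0.41). Cd52 is also made by epithelium of the male genital tract. Of 7 B lineage genes 2 were higher and 5 lower, and without nonTEC array 3 the counts were 0 and 5. The 4 erythroid genes were lower in TEC, with Alas2, the haem synthesis enzyme of red cell precursors, at 7.50, 8.21 and 7.74 against 12.70, 13.16 and 12.65 (-5.02 ± 0.42). Hba-a1, an alpha globin gene with a near-identical copy, was very bright in both (13.19 ± 0.22 and 14.63 ± 0.06).

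Counts for genes that report the state of the cells moved with the scaling. Of 17 cell cycle genes, 7 were lower in TEC and 0 higher, with a median of -0.67, beside -0.30 and 42.1% called lower for all genes, so the count was near the background. Nusap1 differed by -1.63 ± 0.37 and Top2a by -1.47 ± 0.60, whereas Cdk1 did not pass (8.57 ± 0.17 against 8.70 ± 0.07). The 7 became 5 without nonTEC array 3 and 3 without arrays 1 and 2, and after quantile normalization 3 were lower and 1 higher. Top2a no longer passed after quantile normalization (limma adjusted p = 0.102). Of 16 immediate early and stress genes, which cells switch on rapidly when stimulated or handled, 14 were lower in TEC and 0 higher (median -0.99). Fosb had 10.60, 9.89 and 9.68 against 12.95, 13.26 and 12.74 (-2.93 ± 0.25) and Klf2, also an endothelial and T cell factor, differed by -2.62 ± 0.31. Of these genes 7 were lower after quantile normalization, 5 on percentile ranks and 7 with nonTEC array 3 alone on the stromal side. Reference genes had a median of 0.02 as deposited and 0.36 after quantile normalization. Of 13, 4 were higher and 2 lower as deposited, 1 and 1 without nonTEC array 3, and 8 and 1 after quantile normalization. Actb had 13.94, 14.13 and 13.99 against 13.99, 13.79 and 13.97, which overlapped, and was called higher in TEC only after quantile normalization (0.55) or centring (0.47).

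Some genes could be compared only by presence. Probes of 1579 genes were present only in TEC and of 1107 only in nonTEC, and whether absence reflects a filter on low values is not given in the sources used here. Among the brightest present only in TEC were Sh3tc2 (11.30, 11.33 and 11.27) and the lactoperoxidase Lpo (10.43, 10.64 and 10.61). Among those present only in nonTEC were extracellular superoxide dismutase, Sod3 (10.67, 11.50 and 11.34), and the inflammatory cytokine Il6 (9.74, 9.79 and 9.01). Elane, neutrophil elastase, was again low on array 3 only (12.35, 12.15 and 6.04).

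The difference between epithelium and stroma in mice aged 9 to 12 months mostly had the sign of the young one among genes chosen as large in the young. Of the 616 genes at least 4-fold higher in young TEC, 609 had the same sign in all 5 older conditions and 409 kept a 4-fold difference in all of them. Of the 908 lower, 884 kept the sign and 450 the size. By limma's test the young difference was wider in 142 of these 908 and narrower in 24. Among the 616 it was wider in 69 and narrower in 80. Both sets were chosen for large young values, which favours a wider difference in the young. The difference of the young mice minus the mean of the 5 older differences was called in 1146 genes (13.5%), 448 upward (5.28%) and 698 downward (8.22%). For Krt8 the young difference of 3.29 was smaller than the older mean of 5.09 (-1.80 ± 0.29, limma adjusted p = 8.36e-05), and the same held for Krt17 (2.62 against 4.99). Col3a1 differed more in young mice (-7.37 against -5.34), as did Bmp4 (-5.80 against -4.16). Cxcl12 was lower in TEC in the young (-1.99) and near 0 on average later (0.06), a difference that did not pass with the mean of its probes (adjusted p = 0.614, limma). Wnt10a was 3.68 higher in young TEC and -0.25 on average later, with values of -0.58 to 0.20 in the 5 older conditions. Wnt6, another WNT ligand, went from 2.56 to 0.37. Of the 17 cell cycle genes, 9 had a lower difference in the young and 0 a higher one, for example Cdk1 with -0.14 against 1.92. Without young nonTEC array 3 the 9 became 8. The median young minus older value of the list was -1.24 with all arrays and -1.21 without young nonTEC arrays 1 and 2. Without 4 older TEC arrays that stand apart 1690 genes were called, and without young TEC array 2, young TEC array 3 or young nonTEC array 3 the counts were 681, 735 and 722.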

How the data were processed

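RNA of sorted cells was labelled with biotin and hybridised to Illumina arrays. The deposited values are log2 intensities, normalized by the authors separately for TEC and nonTEC; limma is the tool listed in the submitters' processing notes, with no version, and the base was taken as log2 from the range of the values. No source used here states the background correction or a probe filter. Of 24671 probes 18386 had values in both fractions; 20825 named 1 gene, 11 several and 3835 none, and 20799 matched RefSeq by gene ID. Where a gene had several probes, the one with the highest mean over all arrays was used. Genes above 6.73 (the median of all values) in at least 1 group mean were tested. The test was limma 3.58.1 under R 4.3.3 on group means of all 41 arrays, with a trended eBayes prior and Benjamini-Hochberg adjustment. Data were simulated for 8487 genes, of which 200 were changed by 1 or 2, with independent noise and no added scaling offset. For the young comparison 70% of genes changed by 1 and 97% of those changed by 2 were recovered, with 3.47% of calls false. For the young minus older comparison the shares were 62% and 96%, with 3.07% false. In the data 66.5% of genes were called in the young comparison and the fractions were normalized separately. The simulated shares of false calls therefore do not describe the calls made here.

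Genes named are the 12 of largest difference in each direction without overlap, up to 6 called members of each list by size, a short list of thymic genes given in any case, and the 6 of largest young minus older value in each direction. Uncharacterised loci were left out. Other genes, such as list members that did not pass, were named after their values were seen. The members and lists were chosen with earlier results of these data known. The labels do not say whether replicate numbers pair the fractions, and the main test did not pair them. The same-number correlations of deviations were -0.17, 0.07 and 0.02, which cannot settle this with so few arrays. Alternatives covered scaling, filters, probe choice, array weights, the prior, replicate blocks and leaving out arrays.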

Additional observations from a re-analysis of the deposited data

Results flagged for a closer look

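In 1146 of 8487 genes (13.5%) the difference between TEC and nonTEC was called different in young mice and in mice aged 9 to 12 months. The test was limma's, of the young difference minus the mean of the 5 older ones. The 18 genes listed here are only a part of these. Other genes named above, such as Aire (-1.70) and Csn2 (-1.56), were called too. The value was positive for Wnt10a (3.94), Adh7 (3.17), Cxcl13 (2.84), Scin (2.67), Cap1 (2.51), Aox3 (2.48) and Wnt6 (2.19). Adh7, an alcohol and retinol dehydrogenase, went from 0.91 in the young to -2.26 later, and Cxcl13, a B cell chemokine, from -0.86 to -3.70. Scin went from 1.82 to -0.85, Cap1 from 1.63 to -0.88 and Aox3 from -0.79 to -3.27. The older differences of Cap1 ran from -2.04 (castrated, day 4) to -0.02 (sham, day 4). Against the sham groups alone Cap1 did not pass (1.66, limma adjusted p = 0.0819).

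The value was negative for Chil3 (-4.81), Mpo (-4.49), Prtn3 (-4.25), Igll1 (-4.01), Ngp (-3.94) and Ctsg (-3.89). Most are genes of granulocyte precursors, and Igll1 is a surrogate light chain of B cell precursors. Young nonTEC array 3 was low in Mpo, Prtn3, Ctsg, Ngp and Chil3 (9.50, 9.33 and 6.45), and lowest of its group in Igll1 (9.90, 9.53 and 8.30). Without it the values were -6.28 for Mpo, -6.15 for Prtn3, -5.94 for Ctsg, -4.76 for Ngp, -5.80 for Chil3 and -4.48 for Igll1. Without young nonTEC arrays 1 and 2 they were -0.91, -0.44, 0.22, -2.32, -2.84 and -3.06 in the same order, and only Chil3 and Igll1 passed of these 6. Against unoperated middle-aged mice alone, Mpo (adjusted p = 0.127, limma), Prtn3 (0.0578) and Ctsg (0.115) did not pass. The values of Krt8 (-1.80), Krt17 (-2.37), Col3a1 (-2.03), Bmp4 (-1.64) and Cxcl12 (-2.05) were also negative.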

How the results depend on the processing

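Of 199 results on single genes, 163 kept their direction and their side of the threshold under all alternatives run. The called genes numbered 5640 for the young comparison, and leaving out 1 young array gave 5207 to 5397, with 1882 to 2025 higher, 3296 to 3414 lower, and large differences of 592 to 635 and 888 to 912. Against a difference of 1, 2090 genes passed, 820 higher and 1270 lower. For the young minus older comparison (1146, 448 and 698), leaving out 1 array gave 681 to 1247 called, 252 to 516 higher and 429 to 754 lower. Array weights gave 2631, with 1134 higher and 1497 lower. Against unoperated mice alone 293 were higher, and without the 4 older TEC arrays that stand apart, an alternative chosen after seeing the data, 708 were higher. The replicate block gave 5676 and 1181 called, the 6 young arrays alone 6138, and those with a replicate block 6029. Whether the replicate numbers pair the arrays is not known. Among the 199 results, directions that reversed belonged to genes that did not pass, namely Cdk1, Ltbr and Mucl2. Cdk1 had 0.21 after quantile normalization, 0.23 after centring and 1.86 on percentile ranks. Ltbr had 0.19, 0.21 and 1.44 in the same order. Mucl2 had -0.21 and -0.36 without nonTEC arrays 1 and 2 in turn, and 1.95 without array 3. Over all genes of the young comparison, 15 genes called both ways had opposite signs with the mean of all probes, and 1 after quantile normalization. Leaving out arrays reduces the samples; other causes were not tested. The arrays' number limits the precision, and no background level was used.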
